A study of Mus musculus with 5 samples.

Results

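Homeostatic microglia carry a set of receptors and surface or secreted markers, some of which set them apart from other macrophages. The 9 genes described here were taken by symbol from the deposited mm10 gene table of 45777 genes: Cx3cr1, P2ry12, P2ry13, P2ry6, Tmem119, Olfml3, Selplg, Csf1r and Gpr34. All 9 were found and 0 were absent. Their levels were measured in 5 poly-A RNA-seq libraries of MG5, a mouse microglial cell line labelled WT and grown in medium that was mostly conditioned by A1 astrocyte-like cells. The groups were 10 µM 6OHA for 6 h (1 library), 10 µM bexarotene (BEX) for 6 h (3 libraries) and untreated (1 library), and the study's question was how the response to 6OHA compares with that to BEX. Bexarotene is a retinoid X receptor (RXR) agonist; RXR pairs with many other nuclear receptors, and 6OHA is the code name of a further RXR agonist. According to the design, each group had 3 samples, and the rest of those treated with 6OHA or left untreated were not analysed here. The labels give no vehicle or time for the untreated library, so effects of a vehicle or of handling cannot be told apart from those of the agonists. MG5 stands for a single line in culture, and no label calls the replicates separate cultures; the p-values therefore reflect library-to-library spread, which may be technical.

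In the brain, the receptors of this set let microglia read their surroundings. CX3CR1 binds fractalkine (Cx3cl1) from neurons, CSF1R passes the survival signal of Csf1 and Il34, and the P2Y receptors sense extracellular nucleotides: P2RY12 and P2RY13 respond to ADP and P2RY6 to UDP. GPR34 is a receptor for lysophosphatidylserine, Selplg encodes the ligand of P-selectin, and Tmem119 and Olfml3 encode a membrane protein and a secreted olfactomedin-domain protein that mark resident microglia. Their expression in brain microglia depends on TGF-beta, and much of this programme is known to be lost in culture and in activated cells.

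Libraries held 33823181 to 40545305 counts, and a count of 0 allowed up to 0.074 to 0.0887 CPM (counts relative to the library total after TMM scaling), a limit that covers counting error only, since PCR copies are not independent molecules. All 12 macrophage identity genes were detected in every library, with a summed level of 16236 CPM with 6OHA, 15692 to 15962 CPM with BEX and 17564 CPM untreated. Within a further list of 25 homeostatic genes found in the table, Sall1, Siglech, Crybb1 and Upk1b had 0 counts in every library. Sall1 encodes a transcription factor, and Siglech a lectin, that define microglia in the mouse brain. Some defining markers of other brain cells were at 0: the astrocyte genes Aqp4 and Sox9, the neuronal genes Rbfox3, Nefl and Stmn2 and the oligodendrocyte genes Mog, Olig1, Olig2 and Sox10. The astrocyte list of 9 genes summed to 16.0 CPM with 6OHA, 18.0 to 20.5 CPM with BEX and 24.0 CPM untreated. The neuronal list of 9 genes summed to 18.9 CPM with 6OHA, 17.2 to 18.0 CPM with BEX and 24.6 CPM untreated. The oligodendrocyte list of 10 genes summed to 123 CPM with 6OHA, 126 to 130.4 CPM with BEX and 113 CPM untreated, most of it Mbp, a myelin protein gene at 95.3 CPM with 6OHA, 92.8 to 94.6 CPM with BEX and 76.7 CPM untreated. The fibroblast and endothelial list of 11 genes, 6 of them at 0, summed to 216 CPM with 6OHA, 189 to 192 CPM with BEX and 240.3 CPM untreated, most of it Kdr, a VEGF receptor gene at 206 CPM with 6OHA, 177 to 182 CPM with BEX and 229 CPM untreated.

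Csf1r stood far above the other genes of the set. On the authors' TPM scale, which is per transcript length and so allows genes to be compared, Csf1r had 1622 TPM in the untreated library, rank 56 of 18352 genes above 0 counts, and took 0.304% of that library's counts. P2ry6 followed at 205 TPM (rank 776) and Selplg at 184 TPM (rank 866), then P2ry12 at 69.8 TPM, Tmem119 at 51.3 TPM, P2ry13 at 41.4 TPM, Olfml3 at 40.4 TPM, Cx3cr1 at 18.3 TPM and Gpr34 at 8.43 TPM. On this scale Gpr34 was near the middle of all detected genes, whose median was 7.99 TPM, and Csf1r was 192-fold higher than it. The TPM of Gpr34 depends on the length it was given. CPM divided by TPM, which follows that length, was 2.42 for Gpr34 and 1.81 for Cx3cr1 in the untreated library. GENCODE vM21 gives Gpr34 2090 exonic bases and Cx3cr1 3753. The rank of Gpr34, its place below Cx3cr1 and its distance from Csf1r are therefore uncertain. The untreated group had 1 library and therefore no spread of its own, and among the 3 BEX libraries Csf1r spanned 1602 to 1662 TPM, P2ry6 191 to 198 TPM and Selplg 146 to 155 TPM.

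The order with 6OHA was that of the untreated library, and with BEX 1 neighbouring pair changed places. With BEX, Tmem119 at 65.3 to 67.3 TPM stood above P2ry12 at 61.8 to 63.8 TPM, whereas P2ry12 was the higher of the pair with 6OHA (73.2 against 59.0 TPM for Tmem119) and in the untreated library. P2ry13 at 33.4 to 33.6 TPM and Olfml3 at 24.9 to 28.6 TPM kept their order with BEX, without overlap, and were close untreated. Cx3cr1 spanned 17.8 to 19.4 TPM and Gpr34 11.6 to 16.8 TPM in the BEX libraries. No neighbouring pair overlapped in BEX, but no such comparison was possible within the lone 6OHA or untreated library.

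**Figure D1:**
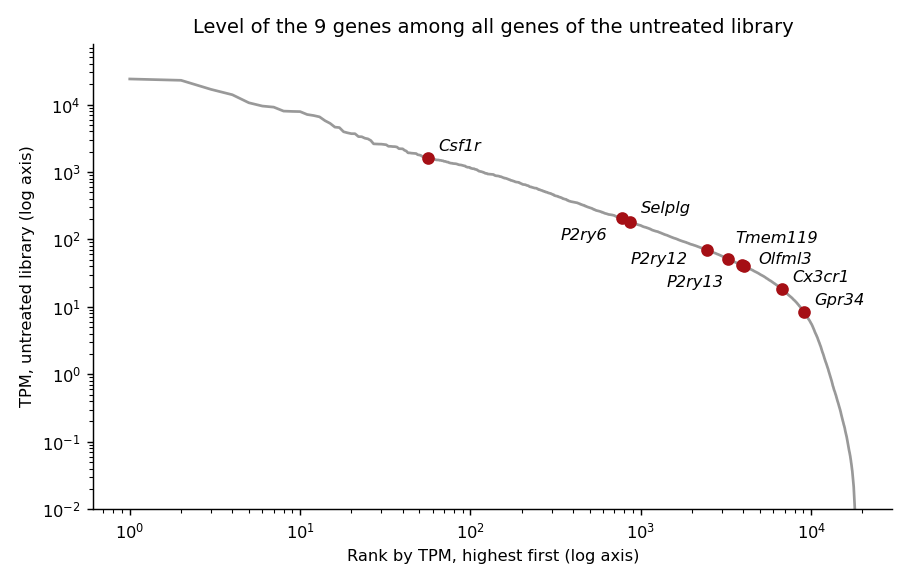
TPM of every gene above 0 in the untreated library against its rank, both on log axes, with the 9 genes as red points. Csf1r stands at rank 56 with 1622 TPM, and Gpr34 is the lowest of the set at 8.43 TPM.

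With BEX, Selplg, P2ry13, Olfml3 and P2ry12 fell and Tmem119 rose. With 6OHA, Cx3cr1, Selplg, P2ry6 and Olfml3 fell, and none of the 9 was called higher. Calls use a threshold of 0.05 on adjusted p from the quasi-likelihood test of edgeR (Benjamini-Hochberg, 15462 tested genes). All 9 genes passed the filter on low counts. With BEX, 5 of 9 were called (4 lower, 1 higher), where 13.6% of all tested genes were called, 6.03% lower and 7.55% higher. With 6OHA, 4 of 9 were called (4 lower, 0 higher), against 14.8% of tested genes, 7.19% lower and 7.59% higher. Calls were more frequent among well expressed genes: of 7447 genes with a mean of at least 20 CPM, as all 9 had, 22.3% were called with BEX and 25.7% with 6OHA. Of all calls, 55.6% were higher with BEX (67.7% on log2(TPM + 1), 70.1% on log2(TPM + 0.1) and 47.5% with GC and length offsets) and 51.3% with 6OHA (62.2%, 62.4% and 56.9% in the same settings). The median log2 fold change of the 9 genes was -0.124 with BEX and -0.0241 with 6OHA, beside -0.00144 and -0.00308 over all tested genes. Both comparisons share the untreated library, and the spread came from the BEX libraries alone, so the variation of the single 6OHA and untreated libraries is an assumption. In bulk RNA, fewer cells that express a gene and less of its RNA per cell cannot be told apart.

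**Figure D2:**
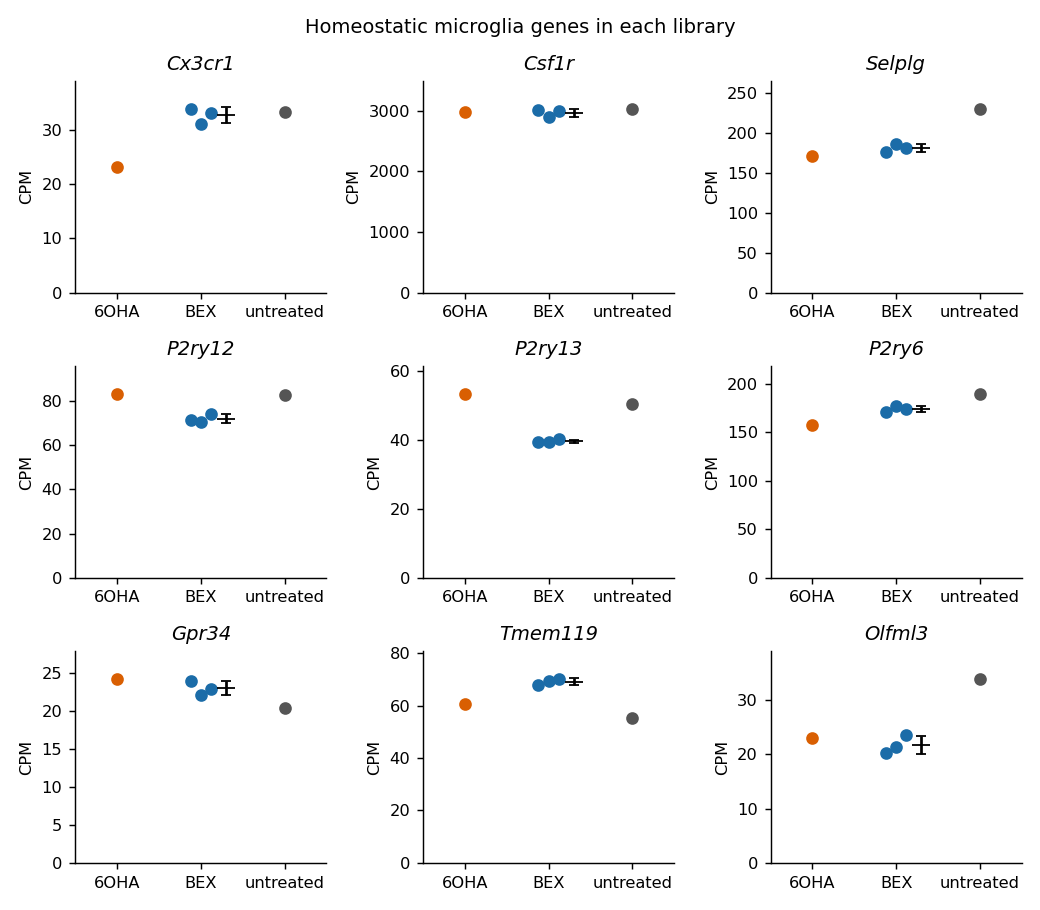
CPM of each gene in each library, on axes that start at 0, for 6OHA (1 library), BEX (3 libraries, with mean and SD as a black bar) and untreated (1 library). Olfml3 and Selplg are lower with both agonists than in the untreated library, Cx3cr1 is low with 6OHA, and P2ry13 is low with BEX.

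On counts, Olfml3 had the largest point estimate of log2 fold change of the 9 with either agonist; with BEX, that of Gpr34 was larger on the TPM scales. This gene of a secreted olfactomedin-like protein (Entrez gene 99543, GRCm38.p6 chromosome 3, 103735394 to 103738001, minus strand) had 23.0 CPM with 6OHA, 20.2, 21.3 and 23.5 CPM with BEX (21.7 ± 1.71, SD, n = 3) and 33.9 CPM untreated. All 4 treated libraries lay below the untreated one, and the 6OHA value lay within the BEX range. Olfml3 fell by 0.64 ± 0.092 on the log2 scale with BEX (SE; adjusted p = 0.000421), a change of -35.8%, and by 0.56 ± 0.116 with 6OHA (adjusted p = 0.00645), a change of -32.2%. The BEX call held in all 13 alternatives tried, whereas the 6OHA call was lost with limma on log2(TPM + 1) (adjusted p = 0.0686) and on log2(TPM + 0.1) (0.0634; range over alternatives 0.000215 to 0.0686).

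Tmem119 moved the other way. It encodes a membrane protein used as a marker of resident microglia (Entrez gene 231633, chromosome 5, 113793729 to 113800396, minus strand), and it had 60.7 CPM with 6OHA, 67.7, 69.4 and 70.2 CPM with BEX (69.1 ± 1.28, SD, n = 3) and 55.2 CPM untreated. The BEX libraries were highest and did not overlap either of the other groups. Tmem119 rose by 0.32 ± 0.063 with BEX (adjusted p = 0.00384), or 25.1%. With 6OHA the log2 fold change was 0.14 ± 0.077 (adjusted p = 0.281; 95% interval -0.0316 to 0.304) and was not called. With offsets for GC content and transcript length it was called with 6OHA as well (0.42, adjusted p = 0.00341; range over alternatives 0.00341 to 0.443). The GC content of its longest annotated transcript was 59.1%, above that of 94.7% of tested genes.

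Cx3cr1 fell with 6OHA and was not called with BEX, and the difference between the agonists was itself called. The gene of the fractalkine receptor (Entrez gene 13051, chromosome 9, 120048683 to 120068296, minus strand) had 23.1 CPM with 6OHA, 33.9, 31.1 and 33.1 CPM with BEX (32.7 ± 1.46, SD, n = 3) and 33.2 CPM untreated. The untreated value lay within the BEX range, and the 6OHA library was below all others. Cx3cr1 fell by 0.52 ± 0.105 with 6OHA (adjusted p = 0.00566), a change of -30.3%, and its log2 fold change with BEX was -0.021 ± 0.080 (adjusted p = 0.911; 95% interval -0.195 to 0.153). The 6OHA call rests on 1 library against 1 and was lost on log2(TPM + 1) and log2(TPM + 0.1) (adjusted p = 0.0787 and 0.0688; range over alternatives 0.000225 to 0.0787).

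Csf1r, the receptor tyrosine kinase gene on which microglial survival depends, was not called in any comparison (Entrez gene 12978, chromosome 18, 61105572 to 61131139, plus strand). It had 2982 CPM with 6OHA, 3004, 2893 and 2986 CPM with BEX and 3032 CPM untreated. All 4 treated libraries lay below the untreated one, and the 6OHA value lay within the BEX range. Its log2 fold change was -0.034 ± 0.033 with BEX (adjusted p = 0.557) and -0.024 ± 0.040 with 6OHA (adjusted p = 0.765). The 95% intervals run from -7.02% to 2.54% with BEX and from -7.38% to 4.42% with 6OHA. The direction of these small values turned with the scaling, to 0.00716 with BEX on log2(TPM + 1) and to 0.0464 with 6OHA with GC and length offsets.

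Selplg fell with both agonists. The gene of P-selectin glycoprotein ligand (Entrez gene 20345, chromosome 5, 113817798 to 113832528, minus strand) had 171 CPM with 6OHA, 177, 187 and 182 CPM with BEX (182 ± 4.86, SD, n = 3) and 231 CPM untreated. Every treated library was below the untreated one. It fell by 0.34 ± 0.049 with BEX (adjusted p = 0.000361), a change of -21.1%, and by 0.43 ± 0.061 with 6OHA (adjusted p = 0.000555), a change of -25.8%. Both calls held in every alternative tried, 13 with BEX and 12 with 6OHA. Selplg lies 17402 bases from Tmem119, which was called in the opposite direction with BEX, and 9911 bases from Coro1c, an actin-binding coronin gene that fell by 0.28 with BEX (adjusted p = 0.000624) and by 0.24 with 6OHA (adjusted p = 0.00886).

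P2ry13 and P2ry12, the neighbouring ADP receptor genes, were lower with BEX and near the untreated level with 6OHA. P2ry13 (Entrez gene 74191, chromosome 3, 59207892 to 59210882, minus strand) had 53.4 CPM with 6OHA, 39.3, 39.4 and 40.2 CPM with BEX and 50.5 CPM untreated. P2ry12 (Entrez gene 70839, chromosome 3, 59216271 to 59262985, minus strand) had 83.3 CPM with 6OHA, 71.6, 70.4 and 74.2 CPM with BEX and 82.7 CPM untreated. For both genes the BEX libraries were lowest and overlapped neither of the other groups. P2ry13 fell by 0.35 ± 0.067 with BEX (adjusted p = 0.00343), a change of -21.5%, and had a log2 fold change of 0.080 ± 0.080 with 6OHA (adjusted p = 0.584). P2ry12 fell by 0.20 ± 0.060 with BEX (adjusted p = 0.0441), a change of -12.8%, and had a log2 fold change of 0.0099 ± 0.073 with 6OHA (adjusted p = 0.957; -0.068 with GC and length offsets). The BEX call of P2ry12 was close to the threshold: leaving out BEX replicate 1 ended it (adjusted p = 0.0972), as did 5 others of the 13 alternatives, among them DESeq2 (adjusted p = 0.128; range 0.00593 to 0.133). The BEX call of P2ry13 held in all 13.

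Both genes lie inside Med12l, a Mediator subunit gene on the opposite strand, and are 5389 bases apart. GENCODE vM21 exons of Med12l share 9 bases with those of P2ry12 and 0 with those of P2ry13. Whether counting used strand is not given in the sources used here, so reads of the 9 shared bases could be counted for either gene. Med12l spans both genes, so without strand its intronic reads over their exons could also be counted for P2ry12 or P2ry13. This was not tested. Med12l itself had 18.2 CPM with 6OHA, 13.8, 15.6 and 13.3 CPM with BEX and 16.6 CPM untreated. Med12l was not called with BEX (log2 fold change -0.23, adjusted p = 0.227) or with 6OHA (0.13, adjusted p = 0.588). In 6OHA vs BEX it was not called either, at 0.36 ± 0.112 (adjusted p = 0.0803). That value had the same direction as those of P2ry13 (0.43) and P2ry12 (0.21) in this comparison.

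Promoter sequence from RefSeq GRCm38.p6 was analysed for 4 of the 9 genes and is shown for these 4. Promoters of the other genes were not analysed, so the motif matches cover these 4 only. They are P2ry13 and Cx3cr1, the genes called between the agonists, Olfml3, which fell with both, and P2ry12, the neighbour of P2ry13. Each sequence runs 5′ to 3′ on the minus strand from 250 bases before to 50 after the annotated start, at chr3:59262936-59263235, chr3:59210833-59211132, chr3:103737952-103738251 and chr9:120068247-120068546 in the order printed, and capitals mark every match on either strand to the motifs named next.
P2ry12: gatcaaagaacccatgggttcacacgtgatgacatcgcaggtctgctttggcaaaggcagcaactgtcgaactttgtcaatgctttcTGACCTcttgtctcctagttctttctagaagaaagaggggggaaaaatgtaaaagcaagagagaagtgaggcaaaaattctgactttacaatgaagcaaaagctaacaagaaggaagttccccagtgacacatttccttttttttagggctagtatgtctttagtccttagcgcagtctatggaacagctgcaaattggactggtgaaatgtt
P2ry13: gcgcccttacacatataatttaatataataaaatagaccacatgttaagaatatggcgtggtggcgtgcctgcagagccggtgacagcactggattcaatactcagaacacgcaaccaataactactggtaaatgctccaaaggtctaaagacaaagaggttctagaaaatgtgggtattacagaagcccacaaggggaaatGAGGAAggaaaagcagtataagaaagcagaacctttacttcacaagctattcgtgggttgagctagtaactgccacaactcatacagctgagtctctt
Olfml3: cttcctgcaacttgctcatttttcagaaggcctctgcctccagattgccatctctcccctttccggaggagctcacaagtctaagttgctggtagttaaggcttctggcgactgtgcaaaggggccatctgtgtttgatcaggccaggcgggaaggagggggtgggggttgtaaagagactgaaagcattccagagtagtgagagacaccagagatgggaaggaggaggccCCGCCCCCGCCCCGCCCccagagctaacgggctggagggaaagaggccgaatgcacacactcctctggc
Cx3cr1: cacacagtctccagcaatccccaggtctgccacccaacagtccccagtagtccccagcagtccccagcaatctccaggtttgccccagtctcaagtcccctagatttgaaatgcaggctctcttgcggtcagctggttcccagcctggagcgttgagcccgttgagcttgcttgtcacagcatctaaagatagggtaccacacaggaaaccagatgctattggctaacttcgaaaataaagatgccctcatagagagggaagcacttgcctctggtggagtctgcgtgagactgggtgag
The motifs searched were the nuclear receptor half-site AGGTCA, the ETS core GAGGAA bound by factors such as PU.1, the GC box GGGCGG and the TATA box TATAAA, each with its reverse complement. The P2ry12 window held 1 half-site, with its first printed base 163 bases before the start, and 16.3% of 32851 promoters of this length held at least 1. The P2ry13 window held 1 ETS core 48 bases before the start, as did 28.3% of promoters at any position. The Olfml3 window held 3 GC boxes, of which the last pair share 1 base, and 35.7% of promoters held at least 1. The Cx3cr1 window held 0 matches, and the TATA box was found in 13.6% of promoters and in 0 of these 4. GC content was 42.3% in the P2ry12 and P2ry13 windows, 58.0% in Olfml3 and 54.3% in Cx3cr1, against a median of 52.7% over all promoters. These matches describe letters in these windows and say nothing about what is bound there.

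P2ry6, the UDP receptor gene (Entrez gene 233571, chromosome 7, 100937630 to 100975498, minus strand), had 157 CPM with 6OHA, 171, 177 and 174 CPM with BEX and 189.7 CPM untreated. The 6OHA library was lowest and the untreated library highest, with no overlap of BEX with either. P2ry6 fell by 0.27 ± 0.060 with 6OHA (adjusted p = 0.00962), a change of -17.1%, and its log2 fold change with BEX was -0.12 ± 0.048 (adjusted p = 0.118). The 6OHA call was lost with GC and length offsets (log2 fold change -0.082, adjusted p = 0.444) and on log2(TPM + 1) and log2(TPM + 0.1) (adjusted p = 0.0741 and 0.0729; range over alternatives 0.000647 to 0.444). Its transcript had a GC content of 55.9%, above that of 83.6% of tested genes. P2ry2, a nucleotide receptor gene 21070 bases away, had 31.7 CPM with 6OHA, 28.3 to 30.2 CPM with BEX and 36.5 CPM untreated, and was called lower with BEX (log2 fold change -0.31, adjusted p = 0.0165).

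Gpr34, the lysophosphatidylserine receptor gene (Entrez gene 23890, chromosome X, 13622650 to 13640859, plus strand), was not called in any comparison. It had 24.2 CPM with 6OHA, 23.9, 22.1 and 22.9 CPM with BEX and 20.4 CPM untreated, so that every treated library was above the untreated one. The log2 fold change was 0.17 ± 0.092 with BEX (adjusted p = 0.261) and 0.25 ± 0.111 with 6OHA (adjusted p = 0.17). On log2(TPM + 1) and log2(TPM + 0.1) the Gpr34 values were 0.68 and 0.74 with BEX (adjusted p = 0.116 and 0.103) and 0.070 and 0.077 with 6OHA (adjusted p = 0.895 and 0.886). Gpr34 lies within Cask, a kinase gene on the opposite strand with which it shares 0 exonic bases, and Cask was not called either (log2 fold change 0.077 with BEX, adjusted p = 0.626, and 0.16 with 6OHA, adjusted p = 0.336).

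**Figure D3:**
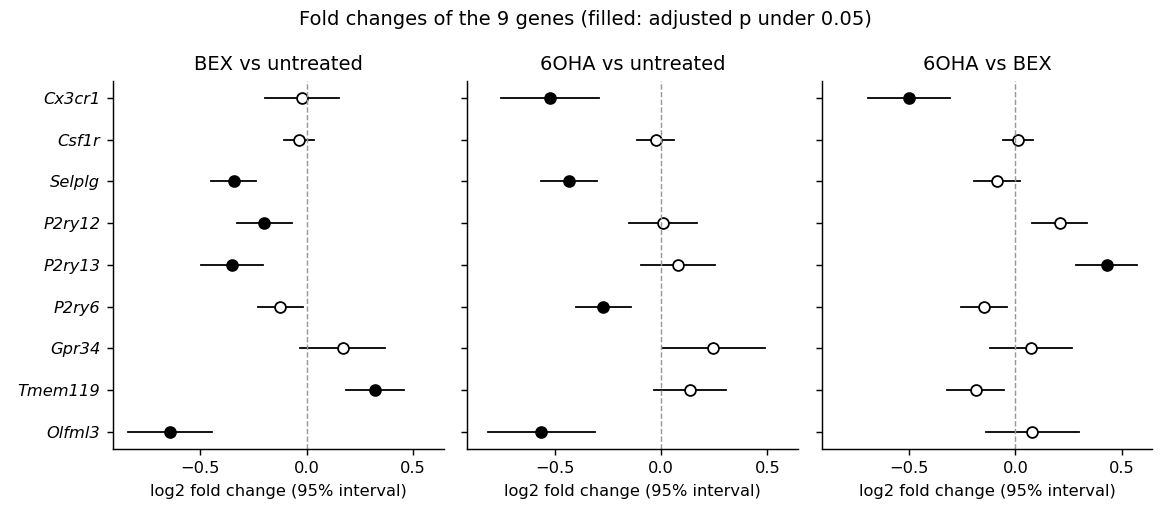
Log2 fold change with its 95% interval for each gene in the 3 comparisons, where filled points have an adjusted p under 0.05. P2ry13 stands above 0 and Cx3cr1 below 0 in 6OHA vs BEX, and no other gene is filled there.

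6OHA and BEX were compared directly at 10 µM and 6 h, which is 1 pair of compounds over the 9 genes, with p-values adjusted over all 15462 tested genes. P2ry13 was higher with 6OHA than with BEX by 0.43 ± 0.067 log2 units (adjusted p = 0.00258), or 34.6%, and Cx3cr1 fell by 0.50 ± 0.089 relative to BEX (adjusted p = 0.00565), a change of -29.3%. These 2 of 9 calls (1 higher, 1 lower) stand beside 6.53% of all tested genes (2.4% higher, 4.13% lower) and 11.6% of genes with a mean of at least 20 CPM. Of all calls, 36.7% were higher with 6OHA than with BEX (24.7% on log2(TPM + 1), 25.7% on log2(TPM + 0.1) and 57.2% with GC and length offsets). The median log2 fold change of the 9 was 0.0103, beside -0.00395 over all tested genes. The Cx3cr1 call was lost without the low-count filter (adjusted p = 0.0552) and on both TPM scales (0.088 and 0.0784; range over alternatives 5.1e-05 to 0.088), and that of P2ry13 on log2(TPM + 1) (0.0506; range 6.61e-05 to 0.0506).

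The other 7 genes were not called between the agonists, and the 6OHA value lay within the BEX range for Olfml3 and Csf1r and outside it for the other 5. P2ry12 was nearest, at 0.21 ± 0.060 (adjusted p = 0.0583; 95% interval 5.55% to 26.3% higher with 6OHA), and it passed without BEX replicate 2 (adjusted p = 0.0404), without BEX replicate 3 (0.0322), with a minimum mean of 20 counts (0.0368) and with the older quasi-likelihood method (0.0432; range 0.0322 to 0.163). Tmem119 had -0.19 ± 0.062 (adjusted p = 0.0998) and P2ry6 -0.15 ± 0.049 (adjusted p = 0.105), and the GC and length offsets turned Tmem119 to 0.038 and P2ry6 to 0.014. Selplg had -0.088 ± 0.050 (adjusted p = 0.365; 95% interval -12.7% to 1.48%). Olfml3 had 0.079 ± 0.101 (adjusted p = 0.731; 95% interval -9.26% to 22.9%) and Gpr34 0.074 ± 0.089 (adjusted p = 0.702; 95% interval -7.83% to 20.3%). Csf1r had the narrowest interval, from -4.1% to 5.77% (adjusted p = 0.904).

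Summed levels were lower in treated libraries for the set and for some marker lists. Over the set, the 8 genes other than Csf1r stood at 596 CPM with 6OHA, 605, 618 and 620.1 CPM with BEX and 696 CPM untreated. All treated libraries were below the untreated one, and Selplg and P2ry6 supply more than any other member to this sum. The 12 macrophage identity genes also summed to less in treated libraries than in the untreated one. So did the astrocyte list, in which 1 of 3 tested genes was called lower with each agonist, and the neuronal list, in which 2 of 3 were called lower with BEX. The neuronal genes were Snap25 (4.89 CPM untreated), a call lost in 4 of 13 alternatives, and Map2 (8.63 CPM untreated), lost in 3 and turned in sign in 2. The fibroblast and endothelial list was also lower in treated libraries. The oligodendrocyte list, most of it Mbp, ran the other way in its sum. The median log2 fold change of its 4 tested genes was 0.139 with BEX and -0.0868 with 6OHA. With 6OHA, Mbp was called higher and Mag lower (-0.84 ± 0.218, a call lost in 5 of 12 alternatives). The peripheral macrophage list also summed to more in treated libraries, at 1461 CPM with 6OHA, 1375 to 1401 CPM with BEX and 1325 CPM untreated. Yet the median log2 fold change of its 7 tested genes was -0.211 with BEX and -0.103 with 6OHA. Within it, Ccr1 had 645 CPM with 6OHA, 660.1, 648 and 674 CPM with BEX and 518 CPM untreated. Ms4a7 fell by 0.35 with BEX and 0.20 with 6OHA, and Ccr2 by 0.21 and 0.10. The part of the genes of these lists in the results on the set was not tested. The counts of the lists in this paragraph and of those that follow stand beside the shares over all tested genes. These were 13.6% called with BEX (22.3% of those with a mean of at least 20 CPM), 14.8% with 6OHA (25.7%) and 6.53% between the agonists (11.6%). Of the 12 macrophage identity genes, 1 was called higher and 5 lower with BEX, and 0 higher and 4 lower with 6OHA. Cd14, the lipopolysaccharide co-receptor gene, fell by 0.33 ± 0.035 with BEX (adjusted p = 2.64e-05) and by 0.51 ± 0.043 with 6OHA (adjusted p = 8.51e-06). Spi1, which encodes the lineage factor PU.1, fell by 0.24 ± 0.047 with BEX (adjusted p = 0.00379) and by 0.31 ± 0.058 with 6OHA (adjusted p = 0.00351). The 6OHA value of Spi1 with GC and length offsets was -0.032 (adjusted p = 0.796; range 6e-05 to 0.796), and its BEX call was lost on both TPM scales (adjusted p = 0.0559 and 0.056).

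Other homeostatic genes moved both ways. Of 19 tested, 3 were higher and 3 lower with BEX (median -0.0481), and 3 were higher and 4 lower with 6OHA (median -0.0495). Mertk, a receptor for the uptake of dying cells, had 77.7 CPM with 6OHA, 77.3, 76.8 and 78.8 CPM with BEX and 41.9 CPM untreated. It rose by 0.89 ± 0.065 with BEX (adjusted p = 9.9e-07) and by 0.89 ± 0.077 with 6OHA (adjusted p = 1.08e-05). Fcrls, an Fc receptor-like gene used as a microglial marker, fell by 0.22 ± 0.040 with BEX (adjusted p = 0.00223) and by 0.17 ± 0.049 with 6OHA. Rhob, a small GTPase gene, fell by 0.52 ± 0.088 with BEX (adjusted p = 0.00153, and 0.0553 on log2(TPM + 1)) and by 0.40 ± 0.111 with 6OHA. Both were called with 6OHA as well, and neither was called between the agonists. Between the agonists, 2 of the 19 were higher with 6OHA and 1 was lower.

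The microglial transcription factor list had 4 genes higher and 4 lower with BEX of 17 tested (median -0.0376), and 3 higher and 4 lower with 6OHA (median -0.0305). Mef2a, a MADS-box factor gene, rose by 0.49 ± 0.044 with BEX (adjusted p = 7.5e-06) and by 0.37 ± 0.054 with 6OHA (adjusted p = 0.000705). Klf4 fell by 0.74 ± 0.101 with BEX (adjusted p = 0.000278) and by 0.92 ± 0.134 with 6OHA (adjusted p = 0.000619). The interferon regulatory factor gene Irf5 was called higher with both agonists, by 0.69 ± 0.049 with BEX and by 0.20 ± 0.060 with 6OHA. Irf5 was lower with 6OHA than with BEX (log2 fold change -0.49 ± 0.048, adjusted p = 0.000122), and 3 of the 17 genes were called lower in that comparison.

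Genes of the TGF-beta pathway, on which the homeostatic programme depends in the brain, were called in both directions. With BEX 5 of 16 were higher and 2 lower (median 0.0308), and with 6OHA 4 were higher and 1 lower (median 0.0906). The ligand gene Tgfb1 had 238 CPM with 6OHA, 238, 264 and 261 CPM with BEX and 312 CPM untreated, and fell by 0.30 ± 0.057 with BEX (adjusted p = 0.00333) and by 0.39 ± 0.070 with 6OHA (adjusted p = 0.00276). Its receptor gene Tgfbr2 rose by 0.40 ± 0.048 with BEX (adjusted p = 0.000113) and by 0.37 ± 0.0585 with 6OHA (adjusted p = 0.00129). Another ligand gene, Tgfb3, moved opposite to Tgfb1, from a low level of 16 counts in the untreated library. Tgfb3 had 1.94 CPM with 6OHA, 3.63, 4.66 and 3.79 CPM with BEX and 0.45 CPM untreated. It was called higher with both agonists, by 3.15 ± 0.534 with BEX. It was lower with 6OHA than with BEX (log2 fold change -1.05 ± 0.28), a call lost in 5 of 13 alternatives. Smad3, which carries the signal to the nucleus, had 5.24 CPM with 6OHA, 13.8, 14.2 and 11.5 CPM with BEX and 5.31 CPM untreated. Smad3 rose by 1.31 ± 0.181 with BEX (adjusted p = 0.000154) and was lower with 6OHA than with BEX (log2 fold change -1.32 ± 0.184, adjusted p = 0.000709). On log2(TPM + 1) that difference was not called (adjusted p = 0.0703), nor was Tgfb1 with BEX (0.0871) or with 6OHA (0.0742). Pmepa1, a TGF-beta target gene, rose by 0.61 ± 0.078 with BEX (adjusted p = 0.000164) and by 0.51 ± 0.095 with 6OHA (adjusted p = 0.00334).

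Among ligands of the set, Il34 and Selp had 0 counts in every library. In this list of ligand and ligand-processing genes, 7 were tested, and 1 was higher and 1 lower with each agonist (medians -0.0225 with BEX and -0.0495 with 6OHA). The higher gene was Adam10, and the lower was Tgfb1, a TGF-beta ligand gene that is also part of the TGF-beta list above. Adam10, the protease gene whose product sheds fractalkine, had 346 CPM with 6OHA, 375, 363 and 361 CPM with BEX and 228 CPM untreated. It rose by 0.68 ± 0.045 with BEX (adjusted p = 5.57e-07) and by 0.60 ± 0.055 with 6OHA (adjusted p = 1.73e-05). Of 12 tested partners of CSF1R signalling, 2 were higher and 3 lower with BEX (median 0.0352), and 2 were higher and 2 lower with 6OHA (median -0.0341). Csf2rb, the shared chain of the GM-CSF receptor, rose by 0.34 ± 0.040 with BEX (adjusted p = 7.31e-05). Csf2ra, the specific chain, fell by 0.31 ± 0.051 with BEX (adjusted p = 0.00104, and 0.0925 on log2(TPM + 1)). Both were called in the same directions with 6OHA, Csf2rb at 0.35 ± 0.0485 and Csf2ra at -0.49 ± 0.0635. The 6OHA call of Csf2ra was lost on both TPM scales.

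Other purinergic receptors and ectoenzymes counted 3 higher and 6 lower of 18 tested with BEX (median -0.159), and 2 higher and 2 lower with 6OHA (median 0.00594). This list also held Gpr35 and Lpar6, which encode related G protein-coupled receptors rather than purinergic receptors or ectoenzymes. Both are among the higher genes counted with each agonist, Lpar6 at 0.84 ± 0.083 with BEX and 0.67 ± 0.099 with 6OHA. Nt5e, which encodes the ectonucleotidase CD73 that makes adenosine, had 93.3 CPM with 6OHA, 95.6, 96.6 and 98.9 CPM with BEX and 154 CPM untreated. It fell by 0.67 ± 0.052 with BEX (adjusted p = 1.62e-06) and by 0.73 ± 0.065 with 6OHA (adjusted p = 1.54e-05). Gpr35, a G protein-coupled receptor gene, rose by 2.28 ± 0.162 with BEX (adjusted p = 2.13e-07) and by 1.88 ± 0.180 with 6OHA (adjusted p = 1.44e-05). The ATP-gated channel gene P2rx7 rose by 0.40 ± 0.068 with BEX (adjusted p = 0.00162; 0.0511 on log2(TPM + 1)).

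Disease-associated microglia genes, the set that rises as homeostatic genes fall in models of neurodegeneration, counted 3 higher and 10 lower of 23 tested with BEX (median -0.0938) and 3 higher and 6 lower with 6OHA (median -0.12), beside 13.6% and 14.8% of all tested genes called. Lgals3, the galectin-3 gene, was called lower with both agonists. It fell by 0.29 ± 0.043 with BEX and by 0.38 ± 0.053 with 6OHA. Lilrb4a, also lower with both, fell by 0.20 ± 0.0475 with 6OHA. Ccl6, a chemokine gene, had 1526 CPM with 6OHA, 2196, 2149 and 2183 CPM with BEX and 701 CPM untreated. It rose by 1.63 ± 0.0335 with BEX (adjusted p = 2.6e-11) and by 1.12 ± 0.041 with 6OHA (adjusted p = 5.86e-09). Axl, a receptor kinase gene related to Mertk, rose by 0.41 ± 0.0425 with BEX (adjusted p = 3.22e-05) and by 0.47 ± 0.052 with 6OHA (adjusted p = 7.56e-05). The inhibitory receptor gene Lilrb4a fell by 0.50 ± 0.039 with BEX (adjusted p = 1.58e-06) and was higher with 6OHA than with BEX by 0.30 ± 0.039 (adjusted p = 0.000718; 0.0669 on log2(TPM + 1)).

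**Figure D4:**
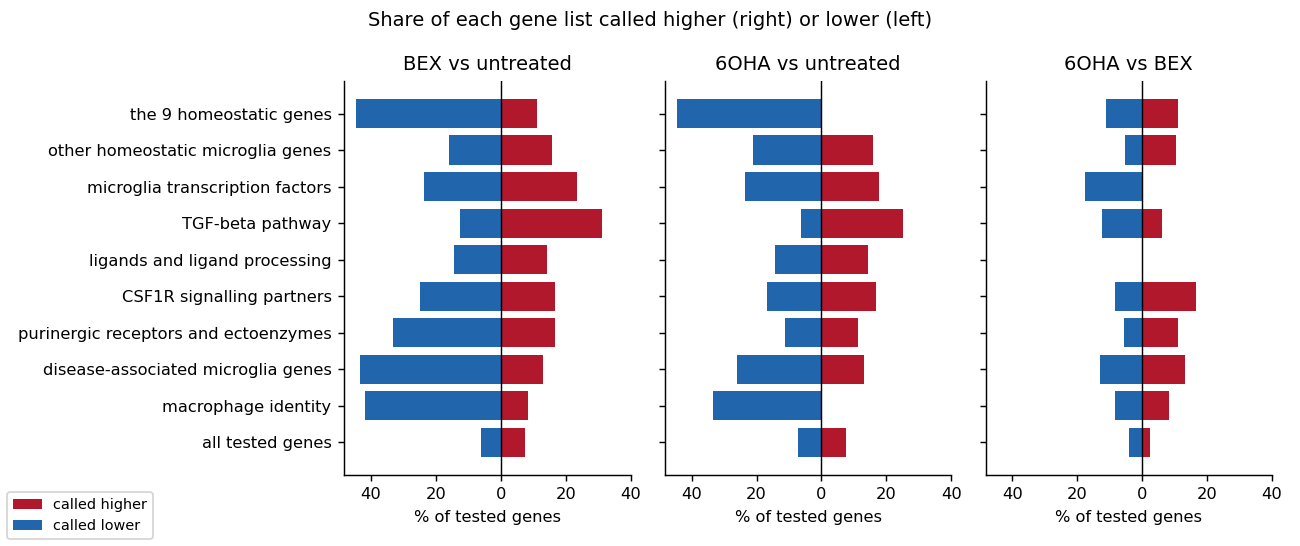
Share of tested genes called higher (red, to the right) or lower (blue, to the left) in each gene list and over all 15462 tested genes, for the 3 comparisons. The 9 homeostatic genes have 4 lower and 1 higher with BEX and 4 lower and 0 higher with 6OHA, and TGF-beta pathway genes have 5 of 16 higher with BEX.

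The ratio of counts to the authors' TPM varied widely between libraries for Gpr34 alone among the 9. CPM divided by TPM, which follows the length a gene is given, was 2.71 for Gpr34 with 6OHA, 2.06, 1.31 and 1.58 with BEX and 2.42 untreated. After each library was divided by its median, the highest of these values was 2.07-fold above the lowest, against 1.00 to 1.01 for the other 8 genes. Of 12041 genes with at least 1 CPM in every library, 1.18% spread 1.5-fold or more and 0.216% as far as Gpr34. On the TPM scale Gpr34 had 8.9 TPM with 6OHA, 11.6, 16.8 and 14.5 TPM with BEX and 8.43 TPM untreated. The direction of 6OHA vs BEX therefore turned, from a log2 fold change of 0.074 on counts to -0.61 on log2(TPM + 1) and -0.66 on log2(TPM + 0.1), with no call on either (adjusted p = 0.2 and 0.188). Reads per transcript were not analysed here, so the cause was not tested.

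**Figure D5:**
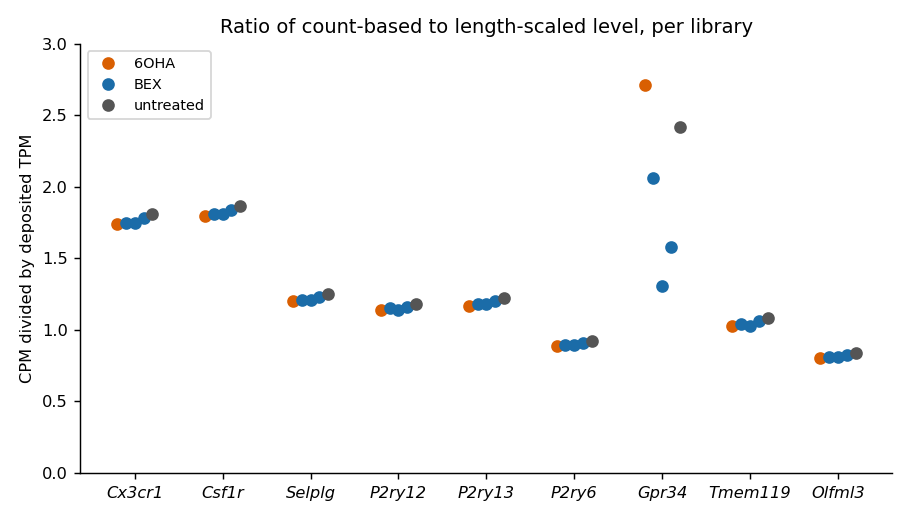
CPM divided by the deposited TPM for each gene in each library, on an axis from 0, with 6OHA, BEX and untreated libraries in different colours. Gpr34 spreads from 1.31 to 2.71, whereas the libraries of each other gene lie together.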

How the data were processed

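RNA from 5 MG5 libraries was prepared with a TruSeq stranded poly-A kit, per the labels' protocols. The submitters' processing notes list, with no roles, HISAT2 2.1.0, StringTie 2.1.3b, Bowtie2, Trimmomatic 0.38, SAMtools 1.9, bcl2fastq 2.20.0 and mm10. Whether counting used strand is not stated there. The authors deposited read counts, FPKM and TPM per gene for 45777 genes. Counts were used for every main test, deposited TPM for comparing levels between genes and for alternatives, and deposited FPKM for no result.

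All libraries entered a single edgeR 4.0.16 quasi-likelihood fit (R 4.3.3, 3 groups, TMM factors 0.9942 to 1.004; filterByExpr, minimum count 10, minimum total 15), two-sided, with Benjamini-Hochberg adjustment at 0.05. The spread came from the BEX libraries (2 residual and 10.6 prior degrees of freedom). SEs and 95% intervals came from the same fit's means and dispersions.

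The members and gene lists were chosen with earlier results of these data known. Named genes were the 9 members, genes that overlap or neighbour them (within 50 kb), and up to 4 called genes with the smallest adjusted p per list and comparison; genes at 0, and genes named for a further comparison than the one that chose them, were chosen after their values were seen. Alternatives were RLE factors, DESeq2 1.42.0, limma 3.58.1 (voom, and trend on log2(TPM + 1) and log2(TPM + 0.1)), keeping all genes with a count, a minimum mean of 20 counts, leaving out each BEX library and fitting only the compared groups. The older quasi-likelihood method and per-library offsets from splines on GC content and transcript length (92.2% of tested genes had both, from GENCODE vM21) were chosen after seeing the data. The pipeline was tested on simulated data. Positions and promoters are from RefSeq GRCm38.p6 (mm10). Some results that were computed are not reported here.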

Additional observations from a re-analysis of the deposited data

How the results depend on the processing

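No paired analysis was possible because 6OHA shares 1 replicate number with BEX, untreated shares 1 with BEX, and 6OHA and untreated share none. Over the alternatives, 106 of 117 results on the 9 genes in BEX vs untreated, 96 of 108 in 6OHA vs untreated and 104 of 117 in 6OHA vs BEX kept their direction and side of the threshold. The number of genes called went to 908, 975 and 1216 from 2101 in BEX vs untreated on log2(TPM + 1), on log2(TPM + 0.1) and without the filter. In the same settings it went to 785, 869 and 1134 from 2285 in 6OHA vs untreated (1302 with GC and length offsets), and to 85, 144 and 190 from 1010 in 6OHA vs BEX. Without each BEX library in turn, the 6OHA vs BEX count ran from 867 to 1660, the highest without BEX replicate 2. Of the 9 genes, 1 instead of 4 was called in 6OHA vs untreated on either TPM scale, and 0, 1 and 1 instead of 2 in 6OHA vs BEX on log2(TPM + 1), on log2(TPM + 0.1) and without the filter. Values that turned sign on log2(TPM + 1) and log2(TPM + 0.1) were, in BEX vs untreated, Cx3cr1 (0.019 and 0.019), Csf1r (0.0072 and 0.0072) and Map2 (0.040 and 0.042); in 6OHA vs untreated, Csf1r (0.031 and 0.031); and in 6OHA vs BEX, Gpr34 (-0.61 and -0.66) and Gpr35 (0.034 and 0.038). With GC and length offsets they were P2ry12 (-0.068), Csf1r (0.046) and Cst3 (0.016) in 6OHA vs untreated and P2ry6 (0.014) and Tmem119 (0.038) in 6OHA vs BEX. Leaving out BEX libraries gave -0.043 to 0.012 for Cx3cr1 in BEX vs untreated and -0.0061 to 0.019 for Csf1r in 6OHA vs BEX. Fitting only the compared groups was not possible for 6OHA vs untreated, which leaves no residual degrees of freedom. The cause of these changes was not tested. A count of 0 allows up to 0.074 to 0.0887 CPM, far under the lowest of the 9 genes.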
